A study of Arabidopsis thaliana with 6 samples.

Results

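Of the 33610 genes counted in these Arabidopsis flower bud libraries, 45 were highest in both lines of sep1sep2sep3 that express SEP3. They were chosen by their read counts, scaled to a library total of 1000000 counts (CPM). A gene was taken when its mean over the 6 libraries was at least 2 CPM and when the lower of the 2 SEP3 lines had at least 1.5 times the CPM of the highest of the other 4 libraries. Of all genes, 17520 reached a mean of 2 CPM. The same rule turned round found 179 genes highest in both sep1sep2 libraries and 58 highest in both libraries labelled sep1sep2sep3, and 30 genes were lowest in both SEP3 lines by the same factor. The excess of the SEP3 lines is what the rule used, so it is given as a description without a test.

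The libraries come from RNA of the inflorescence meristem together with its young flower buds, of which the oldest were at stages 10-11. The study has 3 genotypes with 2 libraries each. In the first, called sep1sep2sep3 SEP3, the mutant expresses SEP3, and lines 1 and 2 are independent lines with 1 library each. The second is labelled sep1sep2sep3 and the third sep1sep2, each with replicates 1 and 2. All plants thus carry mutations in SEP1 and SEP2, and the wild type was not analysed here. The promoter that drives SEP3 in the lines, the mutant alleles, and whether the replicates come from separate plants are not given in the sources used here. P-values therefore measure only the spread between these libraries, which may be technical.

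SEP3 is a MADS-domain transcription factor that joins other MADS proteins, among them AGAMOUS (AG), in the complexes that specify petals, stamens and carpels. Dimers of these proteins bind a short DNA element, the CArG box, which has a pair of C, a run of A and T and a pair of G. Loss of SEP1, SEP2 and SEP3 together is known to turn the inner organs of the flower into sepals.

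A CArG box lay between 250 bases before and 50 bases after the annotated start of 3 of the 45 genes, which is 6.67%, against 3.33% of the 17414 genes of at least 2 CPM with such a window. The 250 bases before the start are shown for these 3 genes, since this is the element that SEP3 complexes are known to bind. The sequences were read 5′ to 3′ on the strand of the gene from RefSeq's TAIR10.1 genome, with the CArG box in capitals.
eIF4E3, chr1:10339742-10339991, plus strand: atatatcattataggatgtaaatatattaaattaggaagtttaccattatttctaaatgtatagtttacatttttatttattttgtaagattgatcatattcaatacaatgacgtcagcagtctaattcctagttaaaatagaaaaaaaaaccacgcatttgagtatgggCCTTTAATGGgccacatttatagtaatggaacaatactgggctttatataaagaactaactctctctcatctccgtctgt
NHX3, chr5:22472707-22472956, minus strand: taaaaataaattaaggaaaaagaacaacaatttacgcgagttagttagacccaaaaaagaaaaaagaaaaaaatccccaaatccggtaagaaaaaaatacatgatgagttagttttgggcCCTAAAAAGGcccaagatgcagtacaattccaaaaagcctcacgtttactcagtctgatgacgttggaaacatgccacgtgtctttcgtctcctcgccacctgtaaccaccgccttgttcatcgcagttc
AT1G26590, chr1:9188695-9188944, plus strand: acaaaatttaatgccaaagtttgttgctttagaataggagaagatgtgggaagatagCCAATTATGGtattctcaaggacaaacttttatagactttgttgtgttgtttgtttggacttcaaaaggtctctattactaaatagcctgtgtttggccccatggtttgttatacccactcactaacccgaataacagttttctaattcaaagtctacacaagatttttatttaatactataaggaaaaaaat
The boxes began 80 bases before the start of eIF4E3, 130 bases before that of NHX3 and 193 bases before that of AT1G26590. The search took CC, 6 letters of A or T and GG without a mismatch. A strong site that the authors name in the KNU promoter has a G in the run and would be missed. No CArG box of this strict form was found in these windows of SEP3, MYB26 or CALS5, which says only that these letters are not there. With 1000 bases before the start, 5 of the 45 genes had a CArG box, which is 11.1%, against 7.94% of the same genes. These shares rest on 3 and 5 genes and were not tested, and binding at the boxes was not examined here. The wider window added AT1G11100 and AT2G26690 and gave NHX3 a second box, shown with 10 bases on either side.
AT1G11100, chr1:3710082-3710091, minus strand: tgtaatttccCCAAAAATGGtataatttta
AT2G26690, chr2:11351634-11351643, minus strand: agaaattattCCAAATTAGGcgggtaaagc
NHX3, chr5:22473412-22473421, minus strand: aatacgcattCCAATAATGGctacatttac
These boxes began 505, 650 and 715 bases before the start of AT1G11100, AT2G26690 and NHX3.

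Library totals were 24000063 to 31263376 counts. The share of even numbers among counts of 1 to 20 was between 85.9 and 88.3% in each library, as when both reads of a pair are counted, and the counting error is then larger than the counts imply. The 45 genes held 0.134 and 0.113% of all counts in the SEP3 lines, against 0.0397 and 0.0421% in the libraries labelled sep1sep2sep3 and 0.0517 and 0.0531% in sep1sep2. All 13 genes of a list of floral MADS-box genes were counted, at a sum of 692 to 784 CPM in every library. Single genes differed by the test described below. In the libraries labelled sep1sep2sep3, 4 were lower and 1 higher than in sep1sep2, where 7.3 and 0.939% of all tested genes were. In the SEP3 lines, 4 were higher and 1 lower than in the libraries labelled sep1sep2sep3, where 5.74 and 0.55% were. Markers of the tapetum, the layer that feeds developing pollen, summed to 2663 and 1535 CPM in the SEP3 lines, against 215 and 160 CPM in the libraries labelled sep1sep2sep3 and 2251 and 2672 CPM in sep1sep2. Touch and wound genes summed to 80.5 and 86.5 CPM in the SEP3 lines, against 70.0 and 65.3 CPM in the libraries labelled sep1sep2sep3 and 571 and 193 CPM in sep1sep2, where they set both libraries apart. Cold genes summed to 700 and 772 CPM in the SEP3 lines, against 2274 and 2056 CPM in sep1sep2. In the libraries labelled sep1sep2sep3, cold genes summed to 853 and 451 CPM. Of 16 clock genes, 6 were higher and 4 lower in the libraries labelled sep1sep2sep3 than in sep1sep2 by the same test. Between the SEP3 lines and the libraries labelled sep1sep2sep3, no clock gene passed. None of the 45 is on the touch, cold or clock lists, and their part in the levels of the 45 was not tested.

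SEP3 itself had 509.8 and 343 CPM in SEP3 lines 1 and 2, against 147 and 145 CPM in the libraries labelled sep1sep2sep3 and 130.4 and 133 CPM in sep1sep2. Its mean was 3.23 times that of sep1sep2 in the lines. The libraries labelled sep1sep2sep3 did not have less SEP3 than sep1sep2, with a log2 fold change of 0.17 (SE 0.15, edgeR's quasi-likelihood test, adjusted p = 0.502), so these counts do not check the label. Reads of the transgene and of the native gene cannot be told apart in counts per gene. Among the other genes of the genotypes, SEP1 had 2.24 and 4.25 CPM in the SEP3 lines, 5.51 and 4.54 CPM in the libraries labelled sep1sep2sep3 and 2.61 and 1.96 CPM in sep1sep2. SEP2 had 17.3 and 112 CPM in the SEP3 lines, 15.3 and 11.1 CPM in the libraries labelled sep1sep2sep3 and 79.1 and 43.5 CPM in sep1sep2. At SEP1 the SEP3 lines overlapped sep1sep2 and lay below the libraries labelled sep1sep2sep3, and at SEP2 line 2 was the highest library while line 1 lay below both sep1sep2 libraries. Between the libraries labelled sep1sep2sep3 and sep1sep2, SEP1 (log2 fold change 1.16, SE 0.33, adjusted p = 0.0289) and SEP2 (-2.19, SE 0.55, adjusted p = 0.0131) passed the test, but both calls were lost with edgeR's filter on low counts (adjusted p = 0.0642 for SEP1 and 0.0793 for SEP2) and without some single libraries (adjusted p up to 0.215 for SEP1 and 0.17 for SEP2). SEP4 had 22.8 and 33.1 CPM in the SEP3 lines, 40.3 and 44.7 CPM in the libraries labelled sep1sep2sep3 and 25.7 and 27.8 CPM in sep1sep2. AG had 78.2 and 58.9 CPM in the SEP3 lines, 77.3 and 69.6 CPM in the libraries labelled sep1sep2sep3 and 76.3 and 87.8 CPM in sep1sep2, without a higher genotype. Of these genes only SEP3 met the rule.

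A pair of the genes with the highest ratios were neighbours of SEP3 on chromosome 1. AT1G24250 and AT1G24230, 3989 and 8400 bases from SEP3 and on the same strand, are annotated as paired amphipathic helix (PAH2) proteins, a domain known from the SIN3 family of transcriptional corepressors. AT1G24250 had 16.98 and 12.3 CPM in the SEP3 lines, against 1.32 and 0.457 CPM in the libraries labelled sep1sep2sep3 and 2.81 and 5.84 CPM in sep1sep2. AT1G24230 had 8.67 and 7.96 CPM in the SEP3 lines, against 0.494 and 0.131 CPM in the libraries labelled sep1sep2sep3 and 2.77 and 3.43 CPM in sep1sep2. Both genes were lower in the libraries labelled sep1sep2sep3 than in sep1sep2, by a log2 fold change of -2.30 (SE 0.43) for AT1G24250 and -3.34 (SE 0.43) for AT1G24230, and the libraries did not overlap. The 3 genotypes thus came in the same order at both genes, whereas SEP3 was not called between the libraries labelled sep1sep2sep3 and sep1sep2.

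The genes around them did not all share this pattern. AT1G24240, which lies between the pair on the other strand and is annotated as a ribosomal protein L19 family protein, had 26.3 and 25.8 CPM in the SEP3 lines, against 21.6 and 19.0 CPM in the libraries labelled sep1sep2sep3 and 13.0 and 13.1 CPM in sep1sep2. AT1G24220, another paired amphipathic helix gene beyond AT1G24230, had 9.88 and 4.25 CPM in the SEP3 lines, 0.329 and 0.522 CPM in the libraries labelled sep1sep2sep3 and 4.35 and 5.31 CPM in sep1sep2. It missed the rule because line 2 was below the sep1sep2 libraries. On the other side of SEP3, AT1G24265 had 16.5 and 18.5 CPM in the SEP3 lines, 23.2 and 19.5 CPM in the libraries labelled sep1sep2sep3 and 14.9 and 16.3 CPM in sep1sep2. Of 39 genes of at least 2 CPM within 100000 bases of the start of SEP3, 3 (7.69%, SEP3 included) belonged to the 45. Within 1000000 bases it was 6 of 335 (1.79%), these 3 among them. Over all genes of at least 2 CPM it was 45 of 17520. Reads that fit several places were left out by the authors, and such tandem copies may share reads, so the split of counts between the paired amphipathic helix genes is uncertain. The plot of genes within 30000 bases of SEP3 shows AT1G24220 and the pair as the places where the genotypes lay furthest apart, next to SEP3.

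**Figure D1:**
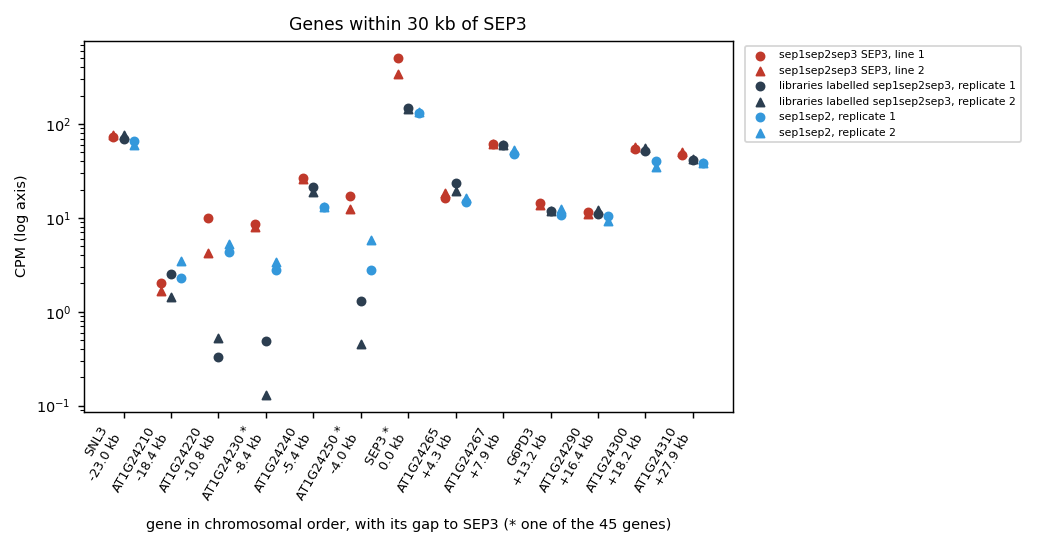
CPM on a log axis of the genes within 30000 bases of SEP3 that exceeded 1 CPM in a library, in chromosomal order with the gap to SEP3 in kb, for sep1sep2sep3 SEP3 (red), the libraries labelled sep1sep2sep3 (dark) and sep1sep2 (blue). Circles are line or replicate 1, triangles are line or replicate 2, and stars mark SEP3, AT1G24250 and AT1G24230. Both starred neighbours were highest in the SEP3 lines and lowest in the libraries labelled sep1sep2sep3.

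Most of the 45 genes had low counts. Their mean over the 6 libraries was 6.62 CPM at the median, against 26.3 CPM for all genes of at least 2 CPM, and 20 of them lay under 5 CPM. All 45 had counts in every library, and 16 had at least 100 counts in every library. The ratio of the lower SEP3 line to the highest other library ran from 1.504 to 2.78, with a median of 1.64. The mean of the lines was 1.59 to 5.01 times that of sep1sep2 and 1.60 to 26.6 times that of the libraries labelled sep1sep2sep3. Per kilobase of exon, SEP3 had the highest level in the lines at 336 CPM per kb, followed by TT7 at 51.1 and THI2.1 at 30.3 CPM per kb, and HAF2 had the lowest at 0.929 CPM per kb. The plot of all 45 genes by library shows the libraries labelled sep1sep2sep3 furthest to the left at most genes.

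**Figure D2:**
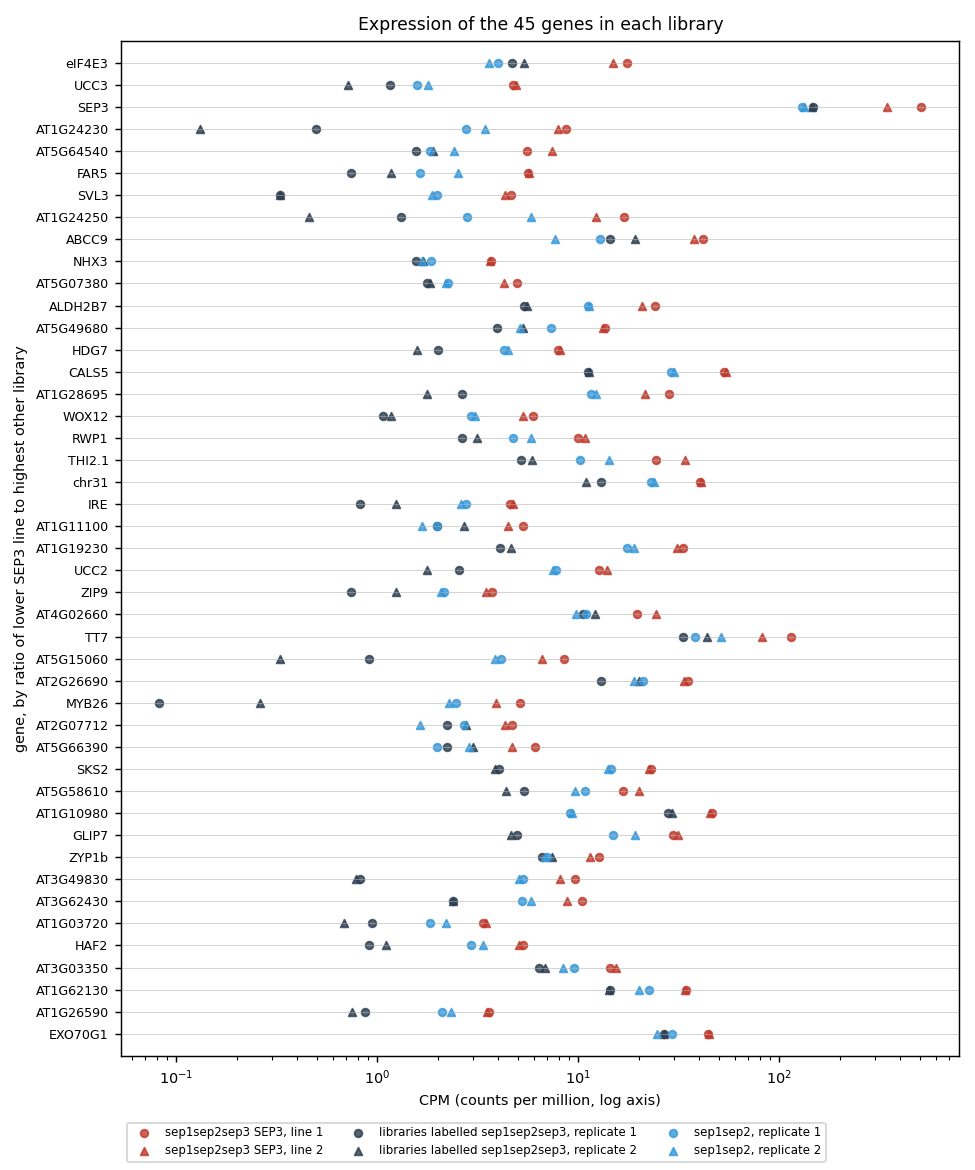
CPM of each of the 45 genes in each library, on a log axis. Red is sep1sep2sep3 SEP3, dark is the libraries labelled sep1sep2sep3 and blue is sep1sep2, and circles and triangles are line or replicate 1 and 2. Genes run from the highest ratio of the lower SEP3 line to the highest other library (2.78, eIF4E3) at the top to the lowest (1.504, EXO70G1).

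The difference between the libraries labelled sep1sep2sep3 and sep1sep2 was tested for all 25458 genes with a count. It was not itself part of the rule, but the rule took the highest of these 4 libraries. Choice and test thus share values, so the numbers for the 45 are not independent of the rule and are a description. The term mutants stands for the libraries labelled sep1sep2sep3 and sep1sep2 from here on. A gene was called where the adjusted p was under 0.05 and the log2 fold change was above 1 or below -1 in edgeR's quasi-likelihood test. Of the 45 genes, 22 were lower in the libraries labelled sep1sep2sep3 and 1 was higher, while 7.3% of all tested genes were called lower and 0.939% higher. Among genes of at least 2 CPM the shares were 6.38 and 1.1%. The median log2 fold change of the 45 was -1.05, against 0.01 for genes of at least 2 CPM, and 35 of the 45 lay below 0. In 30 of the 45, both libraries labelled sep1sep2sep3 were below both sep1sep2 libraries, and in 4 both were above, while 31.8 and 29.3% of genes of at least 2 CPM had these orders. Less RNA per cell and fewer cells that use a gene cannot be told apart in whole flower buds. Tapetum markers moved the same way in these libraries, with 12 of 12 lower in the libraries labelled sep1sep2sep3, and none of them is among the 45. Their part in the result was not tested.

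**Figure D3:**
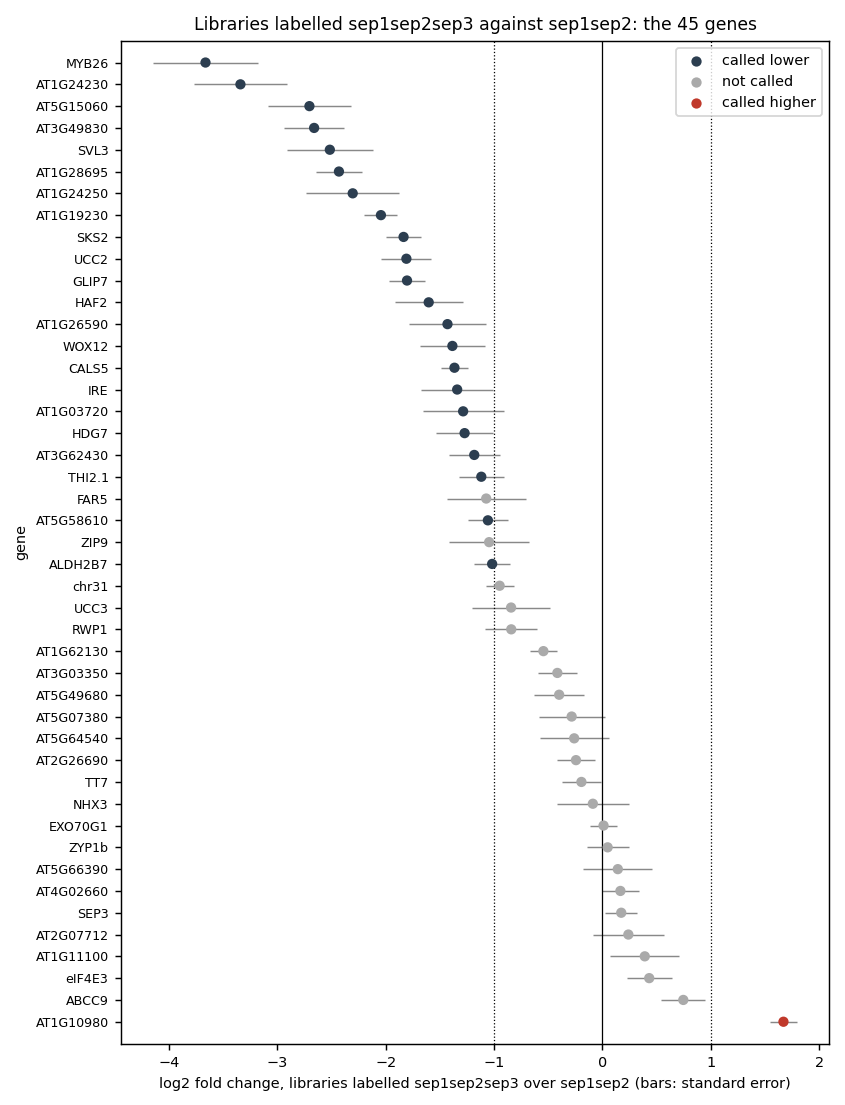
Log2 fold change of each of the 45 genes, libraries labelled sep1sep2sep3 over sep1sep2, with its standard error from edgeR's fit of all 6 libraries. Dark points were called lower (22 genes), grey points were not called (22) and the red point was called higher (AT1G10980). Dotted lines mark the thresholds of -1 and 1.

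The genes were then set out by the roles that RefSeq gives them, with all values known. The groups were made by hand, and counts of calls within them were not tested. Such counts stand beside 22 of the 45 called lower and 6.38% of genes of at least 2 CPM. Among genes of the anther and of meiosis, MYB26 had the lowest log2 fold change of the 45. It encodes a transcription factor needed for the wall thickenings of the endothecium that let anthers open. MYB26 had 5.15 and 3.87 CPM in the SEP3 lines, against 0.0823 and 0.261 CPM in the libraries labelled sep1sep2sep3 and 2.45 and 2.29 CPM in sep1sep2. The level in the libraries labelled sep1sep2sep3 rests on 2 and 8 counts, and the log2 fold change against sep1sep2 was -3.66 (SE 0.48, adjusted p = 9.49e-05). CALS5, which makes the callose around meiocytes and tetrads, had 52.9 and 54.6 CPM in the SEP3 lines, against 11.2 and 11.3 CPM in the libraries labelled sep1sep2sep3 and 28.97 and 29.9 CPM in sep1sep2. Its 3 genotypes stood clear of each other, with replicates within 1 CPM in both mutants, and its log2 fold change between them was -1.37 (SE 0.12, adjusted p = 2.74e-06). ZYP1b, a protein of the synaptonemal complex that joins paired chromosomes in meiosis, had 12.7 and 11.4 CPM in the SEP3 lines, against 6.58 and 7.44 CPM in the libraries labelled sep1sep2sep3 and 7.005 and 6.82 CPM in sep1sep2. The mutants overlapped at ZYP1b, which was not called, and it has a nearly identical copy, ZYP1a, so its counts are uncertain.

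No gene found on the list of tapetum markers met the rule, and genes outside that list were not checked for the tapetum. Of the 12 found on that list, 12 were higher in the SEP3 lines than in the libraries labelled sep1sep2sep3, where 5.74% of all genes were, while their median log2 fold change of the lines over sep1sep2 was -0.17. The summed level of 11 vascular and secondary wall genes was 116 and 122 CPM in the SEP3 lines, 131 and 135 CPM in the libraries labelled sep1sep2sep3 and 173 and 125 CPM in sep1sep2.

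Of 8 genes of the cell wall, suberin or cell surface, 4 were lower in the libraries labelled sep1sep2sep3 and 4 were not called. Over all 45 genes, 22 were called lower. Suberin is a waxy wall polymer that FAR5, a fatty alcohol-forming reductase, and RWP1, a feruloyl transferase, help to make. FAR5 had 5.63 and 5.67 CPM in the SEP3 lines, against 0.741 and 1.18 CPM in the libraries labelled sep1sep2sep3 and 1.62 and 2.53 CPM in sep1sep2. RWP1 had 9.98 and 10.7 CPM in the SEP3 lines, against 2.63 and 3.13 CPM in the libraries labelled sep1sep2sep3 and 4.75 and 5.796 CPM in sep1sep2. Neither suberin gene was called, with log2 fold changes of -1.07 (SE 0.36, adjusted p = 0.06102) for FAR5 and -0.84 (SE 0.24, adjusted p = 0.0258) for RWP1, although at both genes the 2 mutants did not overlap. Without sep1sep2 replicate 1, FAR5 passed at -1.36 (adjusted p = 0.0467).

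The blue copper proteins UCC3 and UCC2, or uclacyanins, are bound to the cell surface. UCC3 had the second highest ratio of all, with 4.73 and 4.92 CPM in the SEP3 lines, against 1.15 and 0.718 CPM in the libraries labelled sep1sep2sep3 and 1.58 and 1.796 CPM in sep1sep2. UCC2 had 12.7 and 13.96 CPM in the SEP3 lines, against 2.55 and 1.76 CPM in the libraries labelled sep1sep2sep3 and 7.76 and 7.51 CPM in sep1sep2. The 3 genotypes stood apart at both genes, and UCC2 was called lower in the libraries labelled sep1sep2sep3 (log2 fold change -1.81, SE 0.23). SKS2, of the SKU5 family of multicopper oxidase-like proteins, had 22.9 and 22.5 CPM in the SEP3 lines, against 4.03 and 3.85 CPM in the libraries labelled sep1sep2sep3 and 14.5 and 14.1 CPM in sep1sep2. SVL3, a glycerophosphodiester phosphodiesterase-like protein, had 4.64 and 4.33 CPM in the SEP3 lines, against 0.329 and 0.326 CPM in the libraries labelled sep1sep2sep3 and 1.98 and 1.88 CPM in sep1sep2. In both, replicates of a genotype lay near each other, and both were called lower, with log2 fold changes of -1.84 (SE 0.16) for SKS2 and -2.52 (SE 0.39) for SVL3. The lipase GLIP7 had 29.5 and 31.3 CPM in the SEP3 lines, against 4.98 and 4.64 CPM in the libraries labelled sep1sep2sep3 and 14.9 and 19.2 CPM in sep1sep2. It was called lower too (log2 fold change -1.80, SE 0.17). AT5G66390, a peroxidase of lignin synthesis, had 6.08 and 4.67 CPM in the SEP3 lines, against 2.22 and 3.004 CPM in the libraries labelled sep1sep2sep3 and 1.98 and 2.86 CPM in sep1sep2, where the mutants overlapped.

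Of 10 genes of transcription, chromatin and translation, 7 were called lower in the libraries labelled sep1sep2sep3, against 22 of all 45. eIF4E3, a translation initiation factor of the cap-binding family, had the highest ratio of all 45 and was not among those 7. It had 17.4 and 14.9 CPM in the SEP3 lines, against 4.69 and 5.35 CPM in the libraries labelled sep1sep2sep3 and 3.997 and 3.59 CPM in sep1sep2. At this gene both libraries labelled sep1sep2sep3 lay slightly above sep1sep2, with a log2 fold change of 0.43 (SE 0.21, adjusted p = 0.198), and eIF4E3 is the first of the 3 genes whose CArG box is shown above.

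Homeobox, LOB and zinc finger genes were in this group. AT5G15060, of the lateral organ boundaries (LOB) domain family, had 8.51 and 6.58 CPM in the SEP3 lines, against 0.905 and 0.326 CPM in the libraries labelled sep1sep2sep3 and 4.12 and 3.84 CPM in sep1sep2. WOX12, a WUSCHEL-related homeobox gene, had 5.95 and 5.33 CPM in the SEP3 lines, against 1.07 and 1.18 CPM in the libraries labelled sep1sep2sep3 and 2.93 and 3.06 CPM in sep1sep2. HDG7, an HD-ZIP IV homeobox gene, had 7.96 and 8.12 CPM in the SEP3 lines, against 2.02 and 1.57 CPM in the libraries labelled sep1sep2sep3 and 4.27 and 4.49 CPM in sep1sep2. All were called lower in the libraries labelled sep1sep2sep3, with log2 fold changes of -2.70 (SE 0.38) for AT5G15060, -1.38 (SE 0.30) for WOX12 and -1.27 (SE 0.26) for HDG7. HDG7 shares 1571 bases with AT5G52180 on the opposite strand, and the setting for strand is not stated, so reads in that stretch cannot be told apart. Without sep1sep2sep3 replicate 2 the call of HDG7 was lost (-1.11, adjusted p = 0.0615). AT1G26590, a C2H2 zinc finger gene with a CArG box before its start, had 3.58 and 3.5 CPM in the SEP3 lines, against 0.864 and 0.751 CPM in the libraries labelled sep1sep2sep3 and 2.097 and 2.33 CPM in sep1sep2, and was called lower (log2 fold change -1.43, SE 0.36). That call was lost without sep1sep2 replicate 2 (adjusted p = 0.0811) and without sep1sep2sep3 replicate 2 (adjusted p = 0.112).

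The chromatin genes included chr31, a chromatin remodeler of the SNF2 type that had 40.3 and 40.8 CPM in the SEP3 lines, against 13 and 10.9 CPM in the libraries labelled sep1sep2sep3 and 22.95 and 23.8 CPM in sep1sep2. Its log2 fold change of -0.95 (SE 0.13, adjusted p = 1.44e-04) fell just short of the threshold on fold change, which it passed without sep1sep2sep3 replicate 1 (-1.06). HAF2, a TAF1-like histone acetyltransferase, had 5.31 and 5.08 CPM in the SEP3 lines, against 0.905 and 1.11 CPM in the libraries labelled sep1sep2sep3 and 2.93 and 3.35 CPM in sep1sep2. The PHD finger gene AT5G58610 had 16.8 and 19.96 CPM in the SEP3 lines, against 5.35 and 4.37 CPM in the libraries labelled sep1sep2sep3 and 10.8 and 9.67 CPM in sep1sep2. Both were called lower, at log2 fold changes of -1.60 (SE 0.31) for HAF2 and -1.06 (SE 0.19) for AT5G58610, though AT5G58610 lost its call without sep1sep2 replicate 1 (-0.97) and without sep1sep2sep3 replicate 2 (-0.93). AT3G49830, a nucleoside triphosphate hydrolase, had 9.596 and 8.12 CPM in the SEP3 lines, against 0.823 and 0.784 CPM in the libraries labelled sep1sep2sep3 and 5.303 and 5.06 CPM in sep1sep2. Its replicates differed by less than 1 CPM in both mutants, and its log2 fold change was -2.66 (SE 0.28, adjusted p = 1.06e-05). AT1G11100, another SNF2 helicase gene, had 5.31 and 4.46 CPM in the SEP3 lines, against 1.98 and 2.71 CPM in the libraries labelled sep1sep2sep3 and 1.98 and 1.67 CPM in sep1sep2, and was not called.

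Of 8 genes of metabolism and transport, 3 were called lower in the libraries labelled sep1sep2sep3, against 22 of all 45. TT7, the flavonoid 3′-hydroxylase that adds the group by which quercetin differs from kaempferol, was the most abundant of the 45 after SEP3. It had 115 and 82.4 CPM in the SEP3 lines, against 33.4 and 43.5 CPM in the libraries labelled sep1sep2sep3 and 38.3 and 51.2 CPM in sep1sep2. The mutants overlapped at TT7, which was not called (log2 fold change -0.19, SE 0.18, adjusted p = 0.544).

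The other genes of the flavonoid pathway were outside the 45. TT7 was 1 of 13 flavonoid genes of a list of 15 that were found, and none of the other 12 met the rule. Chalcone synthase (TT4), the first enzyme of the pathway, had 858 and 660 CPM in the SEP3 lines, against 769 and 929 CPM in the libraries labelled sep1sep2sep3 and 634 and 805 CPM in sep1sep2, so that all genotypes overlapped. The flavonol synthase FLS1 had 510.2 and 417 CPM in the SEP3 lines, against 514 and 593 CPM in the libraries labelled sep1sep2sep3 and 314 and 406 CPM in sep1sep2. DFR, which leads on to anthocyanins, had 2.18 and 1.33 CPM in the SEP3 lines, against 3.70 and 9.99 CPM in the libraries labelled sep1sep2sep3 and 0.871 and 1.55 CPM in sep1sep2. DFR, LDOX and UF3GT were the 3 flavonoid genes called lower in the SEP3 lines than in the libraries labelled sep1sep2sep3, where 0.55% of all genes were.

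The other enzymes of the group followed the order of most of the 45. AT1G28695, a nucleotide-diphospho-sugar transferase, had 28.2 and 21.6 CPM in the SEP3 lines, against 2.63 and 1.76 CPM in the libraries labelled sep1sep2sep3 and 11.6 and 12.2 CPM in sep1sep2. AT1G19230, annotated in the riboflavin synthase-like superfamily, had 33.04 and 31.1 CPM in the SEP3 lines, against 4.07 and 4.604 CPM in the libraries labelled sep1sep2sep3 and 17.5 and 18.98 CPM in sep1sep2. ALDH2B7, a mitochondrial aldehyde dehydrogenase, had 24.1 and 20.8 CPM in the SEP3 lines, against 5.39 and 5.55 CPM in the libraries labelled sep1sep2sep3 and 11.2 and 11.3 CPM in sep1sep2. All 3 genotypes stood clear of each other at these genes, with log2 fold changes of -2.43 (SE 0.21) for AT1G28695, -2.04 (SE 0.15) for AT1G19230 and -1.02 (SE 0.16) for ALDH2B7. The call of ALDH2B7 was lost without sep1sep2 replicate 2, at -0.99, and without sep1sep2sep3 replicate 1, at -0.98.

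Transporters formed a further group. ABCC9, an ABC transporter of the multidrug resistance-associated group, had 42 and 37.6 CPM in the SEP3 lines, against 14.3 and 19.2 CPM in the libraries labelled sep1sep2sep3 and 12.8 and 7.63 CPM in sep1sep2. Here the libraries labelled sep1sep2sep3 lay above sep1sep2, by a log2 fold change of 0.75 (SE 0.20, adjusted p = 0.0217) that passed the threshold of fold change only without sep1sep2 replicate 1, at 1.16. The sodium/proton exchanger NHX3 had 3.68 and 3.62 CPM in the SEP3 lines, against 1.56 and 1.698 CPM in the libraries labelled sep1sep2sep3 and 1.86 and 1.67 CPM in sep1sep2, with overlap of the mutants. ZIP9, of the ZIP family of metal transporters, had 3.71 and 3.46 CPM in the SEP3 lines, against 0.741 and 1.24 CPM in the libraries labelled sep1sep2sep3 and 2.14 and 2.08 CPM in sep1sep2. The 2 mutants did not overlap at ZIP9, but its low counts left an SE of 0.37 on a log2 fold change of -1.05 (adjusted p = 0.0712). AT2G26690, of the major facilitator superfamily, had 35.3 and 33.6 CPM in the SEP3 lines, against 13 and 20.1 CPM in the libraries labelled sep1sep2sep3 and 21.1 and 18.98 CPM in sep1sep2.

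Of 5 genes of signalling, membrane traffic and defence, 2 were called lower in the libraries labelled sep1sep2sep3, against 22 of all 45. The antimicrobial thionin THI2.1 had 24.2 and 34.1 CPM in the SEP3 lines, against 5.18 and 5.88 CPM in the libraries labelled sep1sep2sep3 and 10.2 and 14.3 CPM in sep1sep2. The kinase IRE, known from the growth of root hairs, had 4.57 and 4.75 CPM in the SEP3 lines, against 0.823 and 1.24 CPM in the libraries labelled sep1sep2sep3 and 2.77 and 2.61 CPM in sep1sep2. Both were called at log2 fold changes of -1.12 (SE 0.21) for THI2.1 and -1.34 (SE 0.33) for IRE, and each call was lost when certain single libraries were left out. THI2.1 stood at -0.84 without sep1sep2 replicate 2, and IRE had an adjusted p of 0.058 without sep1sep2 replicate 1, 0.0591 without sep1sep2 replicate 2 and 0.105 without sep1sep2sep3 replicate 1. AT5G49680, a SABRE-like protein linked to tip growth, had 13.6 and 13.3 CPM in the SEP3 lines, against 3.95 and 5.29 CPM in the libraries labelled sep1sep2sep3 and 7.32 and 5.14 CPM in sep1sep2. AT4G02660, with a BEACH domain, had 19.6 and 24.4 CPM in the SEP3 lines, against 10.6 and 12.1 CPM in the libraries labelled sep1sep2sep3 and 10.96 and 9.71 CPM in sep1sep2. EXO70G1, a subunit of the exocyst that tethers vesicles, had 44.3 and 44.5 CPM in the SEP3 lines, against 26.8 and 26.6 CPM in the libraries labelled sep1sep2sep3 and 29.4 and 24.6 CPM in sep1sep2. The mutants overlapped at all 3, none of them was called, and EXO70G1 shares 3006 bases with AT4G31530 on the opposite strand, so reads in that stretch cannot be told apart.

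Among 8 genes of other or unknown role, AT1G10980 was the only one of the 45 that was called higher in the libraries labelled sep1sep2sep3. This gene, annotated as a transmembrane receptor family protein, had 46.3 and 45.5 CPM in the SEP3 lines, against 27.9 and 29.4 CPM in the libraries labelled sep1sep2sep3 and 9.06 and 9.27 CPM in sep1sep2. The 3 genotypes stood clear of each other in an order that no other called gene had, and the log2 fold change was 1.67 (SE 0.13, adjusted p = 6.06e-07). AT1G10980 lies 33736 bases from AT1G11100 on chromosome 1, where the libraries labelled sep1sep2sep3 and sep1sep2 overlapped. AT3G62430, with an RNI-like and FBD-like domain, had 10.4 and 8.83 CPM in the SEP3 lines, against 2.39 and 2.38 CPM in the libraries labelled sep1sep2sep3 and 5.22 and 5.796 CPM in sep1sep2. The cysteine proteinase gene AT1G03720 had 3.36 and 3.46 CPM in the SEP3 lines, against 0.946 and 0.686 CPM in the libraries labelled sep1sep2sep3 and 1.82 and 2.204 CPM in sep1sep2. These were the other called genes of the group, with log2 fold changes of -1.18 (SE 0.24) for AT3G62430 and -1.29 (SE 0.37) for AT1G03720. The call of AT1G03720 was lost without any one of the 4 libraries compared, with adjusted p between 0.0572 and 0.232, and also with only these 4 libraries in the fit (adjusted p = 0.0604) or with a replicate block (adjusted p = 0.0665). AT5G64540, a mucin-like protein, had 5.57 and 7.42 CPM in the SEP3 lines, against 1.56 and 1.89 CPM in the libraries labelled sep1sep2sep3 and 1.82 and 2.41 CPM in sep1sep2. The uncharacterized gene AT5G07380 had 4.96 and 4.25 CPM in the SEP3 lines, against 1.77 and 1.83 CPM in the libraries labelled sep1sep2sep3 and 2.26 and 2.204 CPM in sep1sep2. Neither was called, although at AT5G07380 the libraries labelled sep1sep2sep3 were both below sep1sep2. The AAA-type ATPase gene AT1G62130 had 34.6 and 33.9 CPM in the SEP3 lines, against 14.4 and 14.3 CPM in the libraries labelled sep1sep2sep3 and 22.5 and 20.1 CPM in sep1sep2. Its log2 fold change of -0.55 (SE 0.13, adjusted p = 0.00814) missed the threshold of fold change. The Rossmann-fold gene AT3G03350 and the pseudogene AT2G07712 complete the group, without a call.

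The 22 genes called lower had a line mean of 1.59 to 3.39 times that of sep1sep2 (median 1.81) and of 3.78 to 26.6 times that of the libraries labelled sep1sep2sep3 (median 5.52). The 22 genes without a call had a line mean of 1.61 to 4.25 times that of sep1sep2 (median 2.11) and of 1.66 to 5.90 times that of the libraries labelled sep1sep2sep3 (median 2.47). Both ratios together hold the difference between the mutants, by which the sets were split, so this contrast largely follows from the call. SEP3, eIF4E3 and ABCC9 were among the genes without a call. The plot of both ratios shows that no boundary separates the sets other than the one the call draws.

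**Figure D4:**
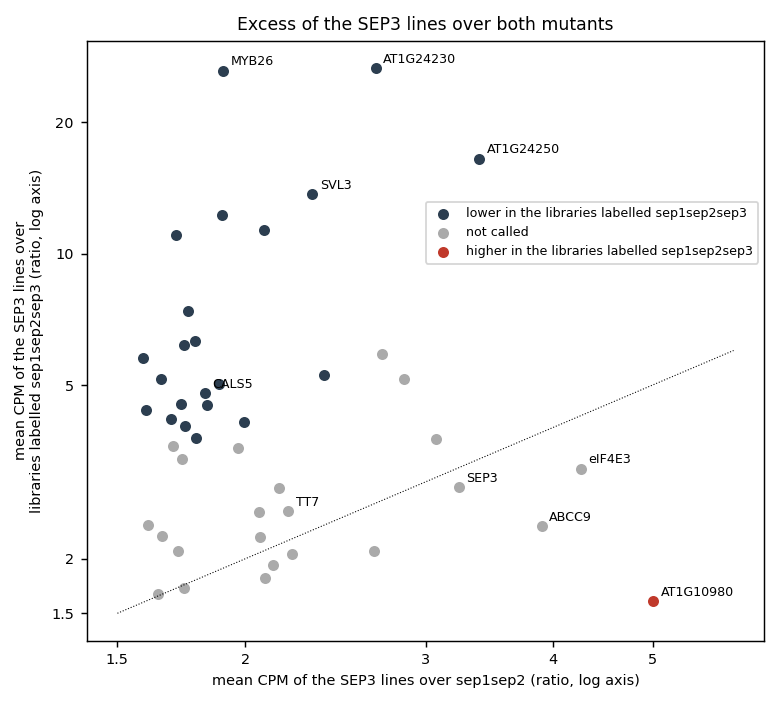
Mean CPM of the SEP3 lines over the mean of sep1sep2 (horizontal) and over the mean of the libraries labelled sep1sep2sep3 (vertical), as ratios on log axes, 1 point per gene. Colours give the call between the libraries labelled sep1sep2sep3 and sep1sep2, and the dotted line marks equal ratios. MYB26 and AT1G24230 reached the highest vertical ratios and AT1G10980 the highest horizontal ratio, 5.01.

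Lines 1 and 2 lay near each other at most of these genes. They were within a factor of 1.2 in 35 of the 45 (77.8%), as they were in 73.9% of genes of at least 2 CPM with counts in both. Line 1 was the higher one in 29 genes and line 2 in 16, with a ratio of line 1 to line 2 between 0.711 and 1.49. SEP3 had the largest ratio, 1.49, and TT7 followed at 1.40, AT1G24250 at 1.38, MYB26 at 1.33 and AT1G28695 at 1.31. At the other end THI2.1 had 0.711 and AT5G64540 had 0.75, with AT4G02660 at 0.804, AT5G58610 at 0.841 and UCC2 at 0.907 next. Each line is 1 library, so these ratios have no replicate check.

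The rule used neither position nor sequence. Chromosome 1 held 15 of the 45 (33.3%, against 26.4% of genes of at least 2 CPM), and chromosome 5 held 14 (31.1%, against 23.4%). Chromosome 2 held 4 (8.89%, against 15.2%), chromosome 3 held 9 (20%, against 19.9%) and chromosome 4 held 3 (6.67%, against 15.1%). Motifs were also searched on both strands from 250 bases before to 50 bases after the start. The G-box CACGTG was found in 4.44% of the 45 against 8.95% of genes of at least 2 CPM, and the evening element AAATATCT in 4.44% against 5.91%. The W-box forms TTGACC and TTGACT were found in 22.2% against 14.0% and in 28.9% against 20.8%, and GCCGCC in none against 2.72%. With 1000 bases before the start, the G-box was found in 22.2% against 17.4%, the reverse order. The W-box forms were then in 44.4% against 36.7% and in 57.8% against 51.4%. The evening element was in 8.89% against 15.7% and GCCGCC in 6.67% against 9.54%. The shares of the shorter window rest on at most 13 of the 45 genes, and no share was tested.

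The rule has a sharp edge in a continuous range. Just inside were EXO70G1, AT1G26590, AT1G62130, AT3G03350 and HAF2, with ratios of 1.504 to 1.52. AT3G03350 had 14.5 and 15.4 CPM in the SEP3 lines, against 6.38 and 6.86 CPM in the libraries labelled sep1sep2sep3 and 9.58 and 8.41 CPM in sep1sep2. Just outside were AT1G15300.1, AT4G03130, PSAT1, AT5G08250 and AT4G25070, with ratios of 1.47 to 1.499. PSAT1 had 38.0 and 37.5 CPM in the SEP3 lines, against 19.4 and 21.4 CPM in the libraries labelled sep1sep2sep3 and 25.5 and 23.8 CPM in sep1sep2. The scale matters at this edge, because TMM, edgeR's scaling of library totals, gave both SEP3 lines a factor above 1 (1.04 and 1.03), against 0.985 and 0.963 in the libraries labelled sep1sep2sep3 and 0.999 and 0.980 in sep1sep2. On CPM with these factors 30 of the 45 met the rule and no other gene did. The 15 that did not were those with the lowest ratios, down from AT4G02660, except SKS2, MYB26, TT7, AT5G15060 and AT2G26690, and they included AT1G10980, GLIP7 and AT3G49830.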

How the data were processed

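RNA-seq libraries of 3 genotypes, 2 each, were compared. The authors mapped reads to TAIR10 with STAR without reads of several places, counted them with featureCounts and used edgeR, all with versions and strand setting not given in the sources used here. They deposited whole-number counts for 33610 genes per library, without normalization. The 2 deposited comparison tables with the authors' own fold changes and p-values were not used.

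CPM were computed from library totals of 24000063 to 31263376 counts. All 25458 genes with a count were fitted together in edgeR 4.0.16 (R 4.3.3, TMM, quasi-likelihood test, a mean per genotype, no replicate block), with Benjamini-Hochberg adjustment over all genes. The procedure was tested on simulated data. Names, roles, gene positions and sequences came from RefSeq's TAIR10.1 annotation and genome, matched by locus. The members and lists were chosen with earlier results of these data known. Named were the genotype genes, members in a list, members with the largest or smallest ratios, line differences and changes, and the most abundant; the remaining members were named by role after their values were seen. Alternatives were DESeq2 1.42.0, other scaling, filters and thresholds, a replicate block and leaving out each library.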

Additional observations from a re-analysis of the deposited data

How the results depend on the processing

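The number of genes that met the rule was 45 with totals as library sizes, 30 with TMM or with DESeq2's size factors (the same 30), 8 with a ratio of at least 2, 68 with a mean of at least 1 CPM and 25 with a mean of at least 5 CPM. Leaving out 1 library at a time gave 57 to 164 genes, which held all 45 when a mutant library was left out and 40 of them when a SEP3 line was. Between the libraries labelled sep1sep2sep3 and sep1sep2, the count called lower was 22 with DESeq2, with its size factors in edgeR or with edgeR's filter on low counts, 25 by adjusted p alone, and 21 with only the 4 libraries compared. The count called higher was 1, except 2 by adjusted p alone, which added ABCC9. Leaving out 1 library gave 17 to 22 lower and 1 to 2 higher. The replicate block gave 21 lower and 1 higher. Deviations of same-numbered libraries correlated at -0.09, -0.04 and 0.05, so the numbers do not pair the libraries. Of the 23 called genes, 16 were called under each of the 12 alternatives and all 23 kept their sign. Of the 22 others, 17 were called under none. The sign changed only in genes without a call, each when 1 library was left out, over which the log2 fold change ran from -0.418 to 0.0461 for TT7, -0.616 to 0.0434 for AT2G26690, -0.064 to 0.639 for AT2G07712, -0.116 to 0.445 for AT5G66390, -0.0627 to 0.147 for ZYP1b and -0.102 to 0.144 for EXO70G1. The cause was not tested. The alternatives of the test kept the same 45 genes, which were chosen from values that the test shares. Stable calls are thus no independent check of them. With under 100 counts in some library for most of the 45, counting error limits small differences.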
